A study of Homo sapiens with 6 samples.

Results

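The peaks of chromosome 3 were followed across 6 H3K27ac libraries made from CCRF-CEM cells, a long-established leukemia cell line of human T lymphoblasts. They were chosen by position alone: 85081 of the 1440888 deposited peaks of all 6 lists lay on chromosome 3. For comparisons between lists of unequal length, each list was limited to its 30000 strongest peaks by p, over the autosomes and chromosome X, called matched peaks here, and between 1818 and 1905 of them per library were on chromosome 3. The strength of a peak, its p in its own library, thus chose the members of every comparison, and all values are descriptions without a test.

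The libraries came from cells with a knockout of SLFN11 and from the parental cells, labelled wild type, each given DMSO as the control or 100 nM camptothecin (CPT) for 2 h or 4 h. The labels name 1 library for each of these 6 groups and do not say whether the knockout cells are 1 clone. Libraries of one genotype differ in treatment and are not replicates, so no difference has a replicate check and no p-value between groups was computed. The knockout label was not checked here at the SLFN11 gene, which lies on another chromosome, and T cell markers could not be looked up without a gene annotation of hg19.

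H3K27ac, acetylation of lysine 27 of histone H3, marks active promoters and enhancers, and groups of marked sites close to each other often belong to the regulatory landscape of one gene. SLFN11 is a nuclear protein that sensitises cells to drugs that block DNA replication, among them camptothecin, an inhibitor of topoisomerase 1. A stretch of chromosome gained or lost in one of 2 sublines changes the read background and the marked sites over its whole length, while a change at an enhancer touches a single site or a few neighbours. Chromosome 3 is known to carry, among many others, SATB1, an organiser of chromatin in T cells, the chemokine receptor genes of its short arm, and BCL6, a transcriptional repressor of germinal centre B cells, on its long arm. These genes are background only, and since positions are on hg19 and the gene table used here is on another build, regions are given by position without gene names.

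The libraries differed in depth, which the lists give only through the background pileup solved from their most frequent pair of fold and p. This background was 0.699 and 0.715 fragments per base in knockout control and 2 h, 0.168 in knockout 4 h, and between 0.506 and 0.603 in the parental libraries. The knockout 4 h library stood apart, with 410176 deposited peaks, 59.8% of them at a pileup of 1 fragment, and a median width of 567 bp among its matched chromosome 3 peaks, against 840 to 1026 bp in the other 5. Regions and calls between genotypes were therefore built on knockout control and 2 h against the 3 parental libraries, and values of knockout 4 h stand beside them.

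Chromosome 3 held nearly the same share of the strong peaks in every library. Among the matched peaks, 1843, 1844 and 1905 lay on it in knockout control, 2 h and 4 h, and 1830, 1818 and 1822 in parental control, 2 h and 4 h. These are 6.14%, 6.15% and 6.35% in the knockout and 6.10%, 6.06% and 6.07% in the parental libraries. The exact 95% binomial intervals, which cover counting error over peaks only, overlapped for all 6, from 5.87% to 6.42% in knockout control and 5.83% to 6.38% in parental control. Among all deposited peaks the shares lay further apart, at 6.04%, 6.15% and 6.17% in the knockout and 5.97%, 5.66% and 5.83% in the parental libraries, with each knockout value above each parental one. The order was the same among the 30000 strongest peaks, where the difference was smaller than the counting intervals.

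With 9.25 matched peaks per Mb over the 5 libraries, against 9.88 over all chromosomes, chromosome 3 was 13th of the 23 chromosomes in density. Its peaks were somewhat narrower than the rest: the median width was 981 bp in knockout control and 990.5 bp in parental control, against 1103 and 1101 bp for all matched peaks of these libraries. Between 56 and 64 of the 1000 strongest peaks of a library were on it. The longest stretch without any deposited peak in the 6 lists ran from 90497973 to 93508244, 3.01 Mb long, and the next longest was 110285 bp. It parts the chromosome into a short-arm side and a long-arm side, with 857 and 986 matched peaks in knockout control and 877 and 953 in parental control.

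The mark was unevenly spread along the chromosome, and the pattern was shared by the libraries. In 5 Mb bins the densest was 45 to 50 Mb, with 135, 146 and 112 matched peaks in knockout control, 2 h and 4 h and 144, 133 and 143 in parental control, 2 h and 4 h. The bin from 50 to 55 Mb followed with a mean of 88.0 peaks over the 5 libraries, and that from 125 to 130 Mb with 80.2. The sparsest bin, from 90 to 95 Mb, includes the stretch without peaks and had 12, 9 and 18 peaks in the knockout and 12, 17 and 11 in the parental libraries. The bins from 80 to 85 Mb and 145 to 150 Mb were the next sparsest, with means of 15.8 and 17.6. Knockout 4 h was flatter than the other 5 libraries, lower in the densest bin and higher in the sparsest.

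**Figure D1:**
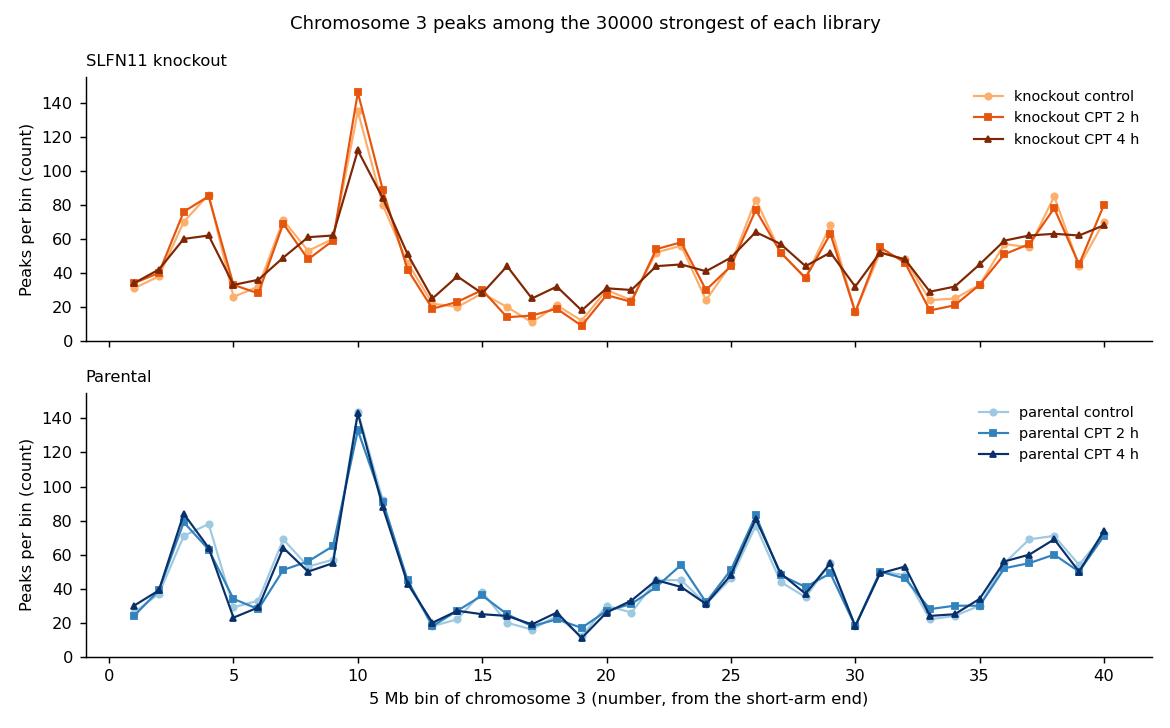
Number of chromosome 3 peaks among the 30000 strongest of each library, in 5 Mb bins numbered from the short-arm end (x axis) against peaks per bin (y axis), knockout libraries above and parental libraries below, 1 line per library. All 6 lines peak at bin 10, with 112 to 146 peaks, and are low around bins 13 to 19.

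Between genotypes, few single 5 Mb bins were called in matched peaks. A bin was called when both knockout libraries lay on one side of all 3 parental libraries in share of matched peaks and the log2 ratio of the means was at least 0.32 in size. All 40 bins of chromosome 3 held enough peaks, a mean of at least 10, and 1 was higher and 2 were lower in the knockout. The same rule called 1.37% of 586 bins of all chromosomes as higher and 2.56% as lower. In both directions together it called 7.5% of the bins of chromosome 3 and 3.925% of all bins. In the called higher bin, 15 to 20 Mb, there were 86, 85 and 62 peaks in knockout control, 2 h and 4 h, against 78, 63 and 64 in parental control, 2 h and 4 h, a log2 ratio of 0.32 over the 5 libraries. The lower bins were 80 to 85 Mb, with 11, 15 and 25 peaks in the knockout and 16, 18 and 19 in the parental libraries, and 100 to 105 Mb, with 24, 23 and 30 against 26, 31 and 33. In none of these 3 bins did knockout 4 h lie beyond all parental libraries on the side of the other knockout libraries, and with it added no bin of chromosome 3 was called. Leaving out a library gave 7 called bins without knockout control (11.6% of all bins were then called), 6 without knockout 2 h (7.65% of all bins) and 7 without parental control (7.99% of all bins).

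The 3 called bins were not adjacent, but bins of one sign did follow each other. The longest run of bins with one sign covered 6 bins from 65 to 95 Mb, all lower in the knockout, with log2 ratios between -0.44 and -0.19. These bins were sparse, with a mean of 12.2 to 31.4 peaks. In all 6 of them the pair at 4 h went the other way, with a higher share in knockout 4 h than in parental 4 h. No run of another chromosome is set beside this one. The log2 ratio over the 40 bins had an SD of 0.20, against 0.16 on the other chromosomes. Within a genotype, the SD on chromosome 3 was 0.20 for knockout 2 h over knockout control and 0.19 for parental 4 h over parental control. For single libraries of the 2 genotypes it was 0.20 in the control pair, 0.32 in the 2 h pair and 0.31 in the 4 h pair. The bins thus spread about as much between the control libraries as within a genotype, and more in the treated pairs.

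The weak peaks, the deposited peaks outside the 30000 strongest, lie close to the read background and are the measure in these lists nearest to a read-out of copy number. Their share was higher in the knockout in 34 of the 40 bins, with a median log2 ratio of 0.17 on chromosome 3 and 0.09 on the other chromosomes. The median elsewhere was thus positive too, so this lean was not particular to chromosome 3. The count of such bins on the other chromosomes is not given here. In the means over the 5 libraries no bin of chromosome 3 reached 1.5-fold in either direction, and 0.171% of all bins did. In the pairs of single libraries 0 of 40 bins passed 1.5-fold in the controls, 2 at 2 h and 13 at 4 h, against 1.19%, 1.54% and 27.5% of all bins. The 2 at 2 h, both higher in the knockout, were 95 to 100 Mb (log2 0.60) and 160 to 165 Mb (log2 0.92), and of the 13 at 4 h, 11 were higher and 2 lower in the knockout. The highest of the means was 80 to 85 Mb, at 1.46-fold (log2 0.55), where the 3 pairs of libraries of the same treatment gave log2 ratios of 0.39 without drug, 0.57 after 2 h and 1.18 after 4 h. The lowest mean was 195 to 200 Mb, at 0.874-fold. At a log2 ratio of 0.32, 7 of 40 bins were higher and 0 were lower in the knockout, where the same ratio was passed upwards by 7.51% and downwards by 3.07% of all bins.

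The ratio of weak peaks was higher where strong peaks were sparse, but over the 5 libraries this contrast was smaller on chromosome 3 than elsewhere. The median log2 ratio of weak peaks was 0.18 in the 20 sparser bins of chromosome 3 and 0.12 in the 20 denser ones, and 0.18 and -0.02 in the corresponding bins of other chromosomes. For the pair at 4 h it was 0.63 in the sparser and 0.08 in the denser bins of chromosome 3, and 0.52 and -0.13 elsewhere. For the pair at 2 h it was 0.24 and 0.21 on chromosome 3, and 0.14 and -0.0048 elsewhere. For the control pair it was 0.19 and -0.039 on chromosome 3, and 0.18 and -0.035 elsewhere. The 2 genotypes differ in background pileup and in the number of weak peaks, and the part of this difference in the bins was not tested. The longest run of bins with more weak peaks in the knockout spanned 14 bins, from 55 to 125 Mb. Its log2 ratios ranged from 0.10 to 0.55, and it overlaps the run of bins with fewer matched peaks. Runs on other chromosomes are not given here, so its length is a description only. How the number of weak peaks scales with copy number was not calibrated.

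**Figure D2:**
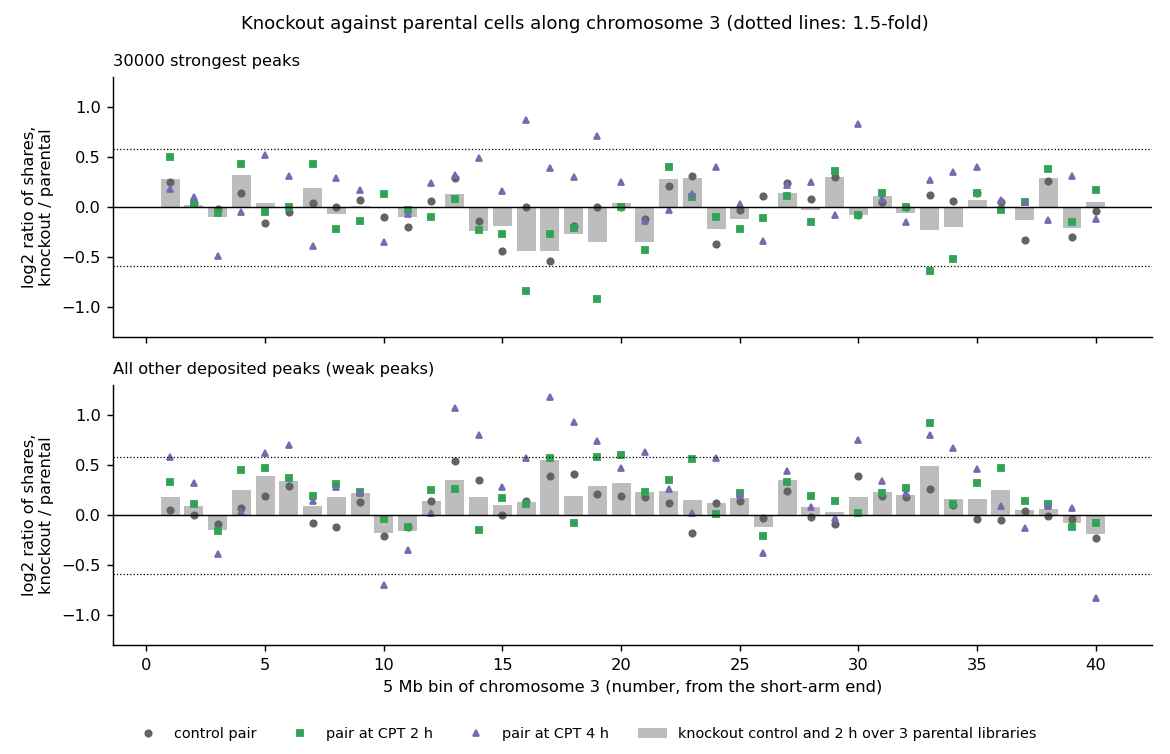
Log2 ratio of the share of peaks per 5 Mb bin of chromosome 3, knockout over parental (y axis), against bin number from the short-arm end (x axis), for the 30000 strongest peaks (top) and all other deposited peaks (bottom). Bars are the means of knockout control and 2 h over the 3 parental libraries, markers the 3 pairs of 1 library each at the same treatment, and dotted lines 1.5-fold. No bar passes a dotted line, and in the lower panel the markers of the pair at 4 h scatter most.

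Single sites were compared by rank, under a rule with another threshold and unit than that of bins, so the 2 sets of counts are not ranked. The 15000 strongest peaks of the 5 libraries were merged into 18835 regions, 1112 of them on chromosome 3, and in each library every region got its rank from the smallest p among its deposited peaks, with rank 1 the strongest. On chromosome 3, 84.7% of regions held a matched peak in all 5 libraries and 72.4% in all 6, against 88.5% and 73.4% elsewhere. A region was called separated when the ranks of the 2 genotypes did not overlap and a gap of over 3000 places lay between them. On chromosome 3, 45 regions (4.05%) were stronger in the knockout, where 1.64% of all regions were, and 16 (1.44%) were stronger in parental cells, where 0.669% of all regions were. Both shares were the highest of the 23 chromosomes, followed by chromosome 8 with 2.40% stronger in the knockout and chromosome 22 with 1.35% stronger in parental cells. Over all chromosomes the rule found 309 and 126 regions, so more regions were called towards the genotype with 2 libraries elsewhere too. With knockout 4 h added the counts on chromosome 3 were 16 and 10, against 0.706% and 0.451% of all regions. Without knockout control, 72 regions of chromosome 3 (6.48%) were stronger in the knockout, against 4.13% of all regions, a smaller ratio than with all 5 libraries. Without knockout 2 h, 25 (2.25%) were stronger in parental cells, against 1.57% of all regions.

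The separated regions were sites of middle to low strength that differed in rank more than in presence. The median rank of the 45 regions was 9432, 9542 and 12418 in knockout control, 2 h and 4 h, against 15995, 16798 and 16830 in parental control, 2 h and 4 h. That of the 16 regions was 14916, 15992 and 15064 in the knockout and 9570, 9184 and 9819 in parental cells. A deposited peak lay in 41 of the 45 regions in all 3 parental lists, and in 1 of the 45 in none of them. Among the 1051 regions of the chromosome that were not separated, 1039 held one in all 3 parental lists. Of the 16, 15 held a deposited peak in both knockout control and 2 h, against 1045 of the 1051. Absence from a list of the other genotype was more frequent among separated regions. A region without a deposited peak shares the last rank, so absence itself favours a call, and this excess follows in part from the rule. Apart from those of knockout 4 h, the ranks above are the ones that chose the regions. The 45 regions were narrower, with a median width of 1125 bp, and the 16 wider, with 1525 bp, than the other 1051 regions of the chromosome, with 1361 bp. They also lay closer to their nearest neighbour, with a median distance of 18515 bp and 13164 bp, against 31162 bp for the other regions.

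Knockout 4 h had no part in choosing these regions. It ranked 34 of the 45 above all 3 parental libraries and 2 below all of them. Of the 16 regions stronger in parental cells, it ranked 12 below all 3 parental libraries and 3 above all of them. Among the 1051 regions that were not separated, it stood above all parental libraries in 340 and below all in 406. The parental ranks in this comparison are those that chose the regions, so these counts are partly fixed by the choice.

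Pairs of libraries of one treatment, which share no library with each other, gave a further description. The regions themselves were made from the strongest peaks of all 5 libraries, so a region weak in one library could enter through another. The pairs are therefore not independent of the choice of regions. Knockout control ranked 126 regions of chromosome 3 more than 3000 places above parental control, where the same held for 7.63% of all regions. Among those 126, knockout 2 h was ahead of parental 2 h in 99 (78.6%), with a median lead of 3020 places, and knockout 4 h was ahead of parental 4 h also in 99, with a median lead of 2215. Over all regions of chromosome 3 these shares were 52.4% and 48.8%. Parental control led by more than 3000 places in 79 regions, against 7.35% of all regions. In these, parental 2 h was ahead in 49 (62.0%) and parental 4 h in 56 (70.9%). On the other chromosomes the 4 shares, in the same order, were 73.5%, 69.5%, 65.0% and 65.8%, so the order seen in the controls returned in most of the picked regions both on chromosome 3 and elsewhere. Picked at 2 h instead, 148 regions led in the knockout (10.0% of all regions did) and 119 in parental cells (10.1% of all regions). The knockout was ahead in 74.3% of the 148 in the controls and in 66.9% at 4 h, and parental cells were ahead in 61.3% of the 119 in the controls but in 44.5% at 4 h. At 4 h itself, 203 regions led in the knockout and 181 in parental cells, against 16.3% and 17.9% of all regions.

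Set against the other chromosomes, separated regions were more frequent on chromosome 3 in both directions, while in single pairs of libraries the share was higher mainly towards the knockout. In the 6 pairs of one knockout and one parental library without knockout 4 h, the share of regions more than 3000 places stronger in the knockout was between 1.27 and 1.53 times that on the other chromosomes. For regions stronger in parental cells the ratio was between 0.811 and 1.10. In pairs within a genotype it ranged from 0.771 to 1.24 over both directions, and in the 3 pairs with knockout 4 h it was between 1.07 and 1.16 towards the knockout. The pairs share libraries and are given side by side.

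The region with the widest gap towards the knockout, called K1 here, lies from 18426648 to 18428218 and belongs to the largest group of such regions. K2, from 154811242 to 154811796, took ranks 9330, 8500 and 14902 in the control, 2 h and 4 h libraries of the knockout, against 17157, 18338 and 18431 in parental control, 2 h and 4 h. K3, from 160603230 to 160604399, ranked 8114, 6689 and 10679 in the knockout and 16069, 16932 and 15425 in parental cells. In both regions all 3 knockout libraries ranked above all 3 parental ones, and K3 has no other region within 127775 bp.

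K4, from 22413376 to 22414500, stood at 9503, 9291 and 11301 in the knockout and at 17333, 17807 and 16672 in parental cells. K5, from 187515728 to 187517120, held closest together in the knockout, with 6357, 7489 and 7760, against 16122, 15109 and 14507. The authors' fold of its strongest peak was 8.33, 7.60 and 4.30 in the knockout lists and 4.05, 4.46 and 4.61 in the parental lists. The knockout 4 h fold was thus inside the parental range of fold while its rank was not, since ranks are taken within each list.

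The other regions named for their gap towards the knockout lay far apart. K6, from 30395964 to 30396647, ranked 11657, 11510 and 15206 in the knockout and 18335, 18467 and 17871 in parental cells. K7, from 99792911 to 99793597, ranked 8252, 9542 and 17396 against 15680, 16720 and 17907. K8, from 182971423 to 182972703, ranked 8778, 6646 and 8582 against 15260, 16410 and 14740. Of these 3, knockout 4 h ranked above all parental libraries in K6 and K8 and lay inside the parental range in K7.

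Towards parental cells, the widest gap was P1, from 169529717 to 169530850, with ranks of 14827, 16465 and 17877 in the knockout and 4306, 3681 and 4375 in parental cells. P2, from 46606119 to 46608122, ranked 14966, 18314 and 17500 in the knockout and 6164, 5466 and 4075 in parental cells. P3, from 107317522 to 107318131, ranked 16977, 16048 and 18254 in the knockout and 9198, 9286 and 9724 in parental cells. In these 3 regions the genotypes did not overlap over all 6 libraries.

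P4, from 194029955 to 194033798, is 3844 bp wide and ranked 11576, 12382 and 2108 in the knockout, against 4240, 5641 and 4400 in parental cells. Here knockout 4 h was the strongest of all 6 libraries, so the call rests on knockout control and 2 h alone. P5, from 119041215 to 119042622, ranked 11023, 10154 and 13108 in the knockout and 4178, 4134 and 4651 in parental cells. P8 is its neighbour, 27001 bp away, from 119012572 to 119014213, with 15946, 16799 and 15647 in the knockout and 9942, 11434 and 11860 in parental cells. Both regions of this place kept the genotypes apart in all 6 libraries.

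P6, from 52595931 to 52596530, ranked 14866, 14412 and 18109 in the knockout and 8533, 9083 and 8929 in parental cells. P7, from 85182494 to 85183591, ranked 17288, 17995 and 17644 against 11448, 12091 and 10940. P7 was the most isolated of the named regions, with 1954221 bp to the nearest other one. Both were weaker in all 3 knockout libraries than in any parental library.

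**Figure D3:**
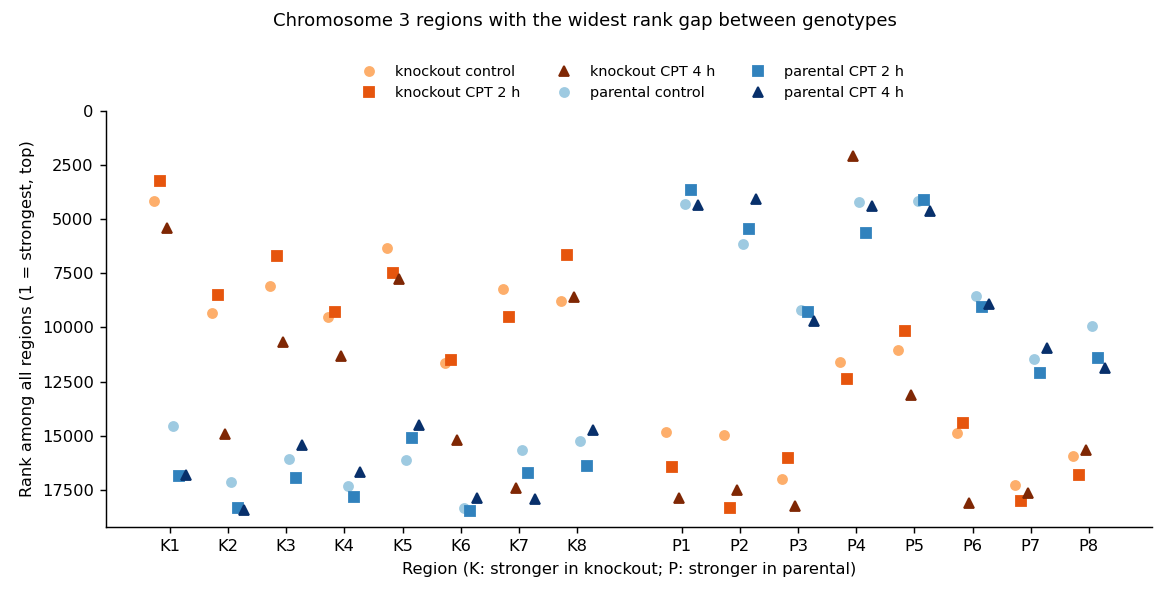
Rank of the 8 chromosome 3 regions with the widest gap in each direction (x axis, K1 to K8 and P1 to P8) in each of the 6 libraries, with rank 1 the strongest at the top (y axis). Circles are controls, squares 2 h and triangles 4 h of camptothecin, in orange to brown for the knockout and light to dark blue for parental cells. Knockout 4 h leaves its genotype in K7 and P4.

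The threshold divided a continuum. Just inside it, the regions from 18411134 and from 101545622 had gaps of 3148 and 3154 places towards the knockout. Just outside, the regions from 183048533 and from 45932519 had gaps of 2918 and 2876. Towards parental cells, the regions from 195633691 and 58320675 were just inside with gaps of 3009 and 3076, and those from 156391750 and 46670173 just outside with 2748 and 2698.

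The strongest sites of the chromosome were chosen for high ranks in all 5 libraries, so a wide gap in places could not occur among them. The strongest region by mean rank, from 73159758 to 73160283, took ranks 8, 7 and 52 in the control, 2 h and 4 h libraries of the knockout and 8, 24 and 5 in parental control, 2 h and 4 h. It is only 526 bp wide with a fold of 14.3 in knockout control and 14.1 in parental control. No list of repeats or problem regions was used here, and this narrow site is therefore given as uncertain. The next, from 185654917 to 185656059, ranked 13, 13 and 43 in the knockout and 19, 28 and 38 in parental cells. The region from 133380263 to 133381173 ranked 60, 34 and 345 against 37, 50 and 84. That from 107809063 to 107810805 ranked 35, 43 and 29 in the knockout and 64, 71 and 91 in parental cells, with all 3 knockout libraries ahead. The fifth, from 151986155 to 151987489, ranked 57, 80 and 445 against 62, 117 and 129. Ranks past 129 occurred in knockout 4 h alone, in 2 of these 5 regions.

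Peaks found in one genotype alone were few and weak. Of the 1843 matched chromosome 3 peaks of knockout control, 37 (2.01%) overlapped no deposited peak in any parental list, against 1.52% of the matched peaks of other chromosomes, and the strongest of them ranked 13566 among the 30000. In knockout 2 h there were 35 of 1844 (1.90%), against 1.27% elsewhere. In parental control, 31 of 1830 peaks (1.69%) overlapped no deposited peak of knockout control or 2 h, against 1.51% elsewhere, and the strongest ranked 16073. In parental 2 h there were 35 of 1818 (1.93%), against 1.75% elsewhere, and in parental 4 h 25 of 1822 (1.37%), against 1.76%. A parental peak had 2 longer knockout lists to match and a knockout peak 3 shorter parental lists, so the counts of the genotypes are not compared.

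Separated regions occurred on both arms, with gaps. They were found in 29 of the 40 bins, those stronger in the knockout in 23 bins and those stronger in parental cells in 12, with both in 6 bins. The short-arm side held 19 and 8 of them among 538 regions and the long-arm side 26 and 8 among 574. None of the 45 lay between 59759545 and 99792911, a gap of 40.03 Mb with 88 regions, 2 of them stronger in parental cells. The widest gap between regions stronger in parental cells, from 142896557 to 169529717, was 26.63 Mb long with 91 regions. Of the 45, 34 had no separated region on either side in the order of regions, and 23 had no other of the same direction within 1 Mb. Of the 16, these numbers were 11 and 11. Only 61 of the 1112 regions were separated, so most would lack a separated neighbour without any grouping too. The numbers for regions scattered without grouping were not computed, so these counts do not show that separated regions stand alone. The bin medians of the rank difference, mean parental minus mean knockout rank, ran from -798.7 to 1392 places. From 65 to 95 Mb, the run of bins with fewer matched peaks, they were -186.2, -739.7, -599.7, -751.8, -5.292 and 447.7. Over single regions the SD was 2185 places and the largest size 12375. A median over many regions lies below the largest single value in any case, so the sizes do not tell stretches from single sites.

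Of the sum of squares of the rank difference over the 1112 regions, 9.87% was between the 40 bins. Noise at single regions also leaves most of the spread within bins, so this share cannot tell long stretches from single sites. On the other chromosomes it was between 2.48% (chromosome 14) and 16.6% (chromosome X), which put chromosome 3 at place 4 of the 23. The share without any grouping depends on the numbers of bins and regions of a chromosome. It was not computed here, so the places are a description. The 9.87% is from means over 5 libraries and is not set against single pairs of libraries. For single pairs within a genotype on chromosome 3, the share was 3.04% for knockout 2 h against knockout control and 6.93% for parental 2 h against parental control. Among single pairs of the 2 genotypes without knockout 4 h, the lowest share was 5.73%, for knockout 2 h against parental control. The highest was 9.65%, for knockout control against parental 4 h, so shares within and between genotypes overlapped.

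Between the scale of a bin and that of a single site, neighbouring regions had like differences over short distances. For neighbours less than 10 kb apart, 64.2% of 176 pairs had a rank difference of the same sign, with a Pearson r of 0.45. At 10 to 50 kb it was 58.6% of 319 pairs (r = 0.34), at 50 to 200 kb 53.3% of 366 (r = 0.14), and at 200 to 1000 kb 49.5% of 214 (r = 0.0049). On the other chromosomes r was 0.29, 0.19, 0.15 and 0.088 at these distances. The r over 5 libraries, from averaged ranks, is not the same measure as r in single pairs of libraries. On chromosome 3 the control pair of the 2 genotypes gave r of 0.33, 0.25, 0.10 and -0.0077. The 2 h pair gave 0.32, 0.25, 0.060 and 0.029. For the single pair of knockout 2 h against knockout control on chromosome 3, r was at most 0.066 at any distance. For parental 4 h against parental control it was 0.14, 0.10, 0.016 and 0.077. These are correlations across regions of the same libraries, given as a description, and neighbours share their local background. In the pair at 4 h, with its knockout library of low background pileup, r on chromosome 3 did not fall with distance and was 0.14, 0.11, 0.22 and 0.13.

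**Figure D4:**
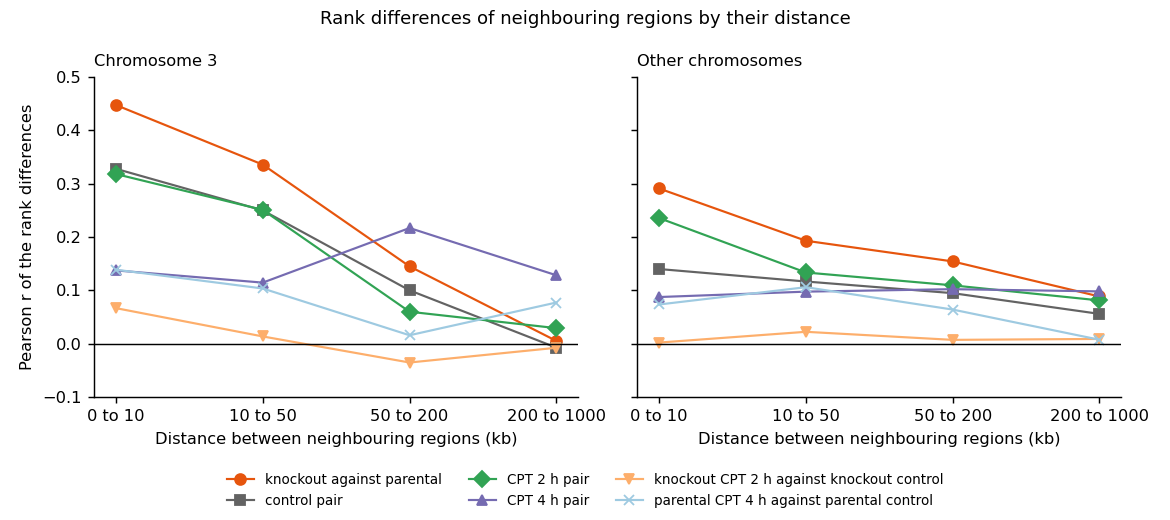
Pearson r between the rank differences of neighbouring regions (y axis) by their distance in kb (x axis), on chromosome 3 (left) and on the other chromosomes (right), for knockout against parental cells over 5 libraries, for the 3 pairs of the same treatment, and for 2 differences within a genotype. On chromosome 3 the line of knockout against parental cells goes from 0.45 below 10 kb to 0.0049 above 200 kb.

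Groups of separated regions were found at 3 places, taken as at least 3 of one direction with no more than 1 Mb from one to the next. The largest ran from 17913974 to 18428218, 514.2 kb, and held 7 regions stronger in the knockout among its 21. Of the 21, 20 had a rank difference towards the knockout and none was separated the other way. The 7 separated regions, those at both ends among them, had this direction by the choice of the group. The second group, from 111037566 to 111835134, held 3 among 12 regions, and the one from 57968140 to 58321002 held 3 regions stronger in parental cells among 6. Without the largest group, 38 of the other 1091 regions of the chromosome (3.48%) were stronger in the knockout, still against 1.64% of all regions, and r between neighbours below 10 kb was 0.33 in place of 0.45. In the control pair and the 2 h pair alone this r was then 0.19 and 0.21. Within a genotype it was 0.083 for knockout 2 h against knockout control and 0.13 for parental 4 h against parental control.

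In the largest group the separated sites lay towards its ends. At one end, the region from 17980562 to 17981525 took ranks 1642, 1211 and 2899 in the control, 2 h and 4 h libraries of the knockout, against 6750, 16075 and 17511 in parental control, 2 h and 4 h. Its largest fold was 7.242, 8.269 and 5.795 in the knockout lists and 8.598, 3.887 and 3.252 in the parental lists. By fold, parental control was thus the highest of the 6 lists, so the order of the untreated libraries depends on the measure. The region from 18020335 to 18021044 ranked 9046, 7667 and 18512 in the knockout and 13417, 12430 and 16973 in parental cells. The first region, from 17913974 to 17914273, ranked 15229, 11426 and 17960 against 18798, 18665 and 18790. Knockout 4 h was below all parental libraries in the region from 18020335 and above all of them in the other two.

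At the other end, 4 separated regions followed each other. The first, from 18411134 to 18412486, ranked 1080, 648 and 3585 in the knockout and 7637, 4228 and 7764 in parental cells. The next, from 18421011 to 18421700, ranked 6807, 10079 and 10044 against 16206, 15960 and 18326, and that from 18424520 to 18424894 ranked 7570, 10521 and 17419 against 14513, 18169 and 16207. The last is K1, with 4178, 3234 and 5402 in the knockout and 14556, 16857 and 16830 in parental cells. In 3 of the 4 regions all knockout libraries ranked above all parental ones, and in the region from 18424520 knockout 4 h lay within the parental range.

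Strong regions stood beside the group, where high ranks leave little room for a gap in places. The next region beyond K1, from 18465693 to 18467669, ranked 2601, 2195 and 2748 in the knockout and 1617, 1978 and 2804 in parental cells, and the one after it, from 18484989 to 18487443, ranked 2689, 3184 and 5131 against 2483, 3766 and 5041. On the near side, the strong region from 17783396 to 17784608 ranked 223, 151 and 210 in the knockout and 353, 371 and 483 in parental cells. Beyond K1 the ranks of the genotypes were close or overlapped, and the near strong region stood slightly higher in all 3 knockout libraries. Weak peaks inside the group numbered 44, 51 and 89 in knockout control, 2 h and 4 h and 37, 35 and 42 in parental control, 2 h and 4 h, or 18.5, 27.1 and 23.9 per 100000 weak peaks of the library in the knockout and 26.1, 23.8 and 28.4 in parental cells. The background of weak peaks there overlapped between genotypes.

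By treatment, 13 of the 21 regions of this group (61.9%) ranked lower in parental 2 h than in parental control, against 50.5% of the regions of chromosome 3 that were not separated. In parental 4 h 17 (81.0%) ranked lower, against 52.3%. In knockout 2 h 9 (42.9%) ranked lower than in knockout control, against 49.7%. The members of the group were chosen with these libraries, and the counts are a description. Knockout control was ahead of parental control in 19 of the 21 regions, knockout 2 h of parental 2 h in 20, and knockout 4 h of parental 4 h in 14. Of all regions of chromosome 3, the knockout was ahead in 53.8%, 52.4% and 48.8% in these pairs. Over all 45 regions stronger in the knockout, 22 (48.9%) ranked lower in both treated parental libraries than in parental control, against 38.0% of the regions of chromosome 3 that were not separated. Since these regions were picked for low ranks in all parental libraries, the share is a description of the picked set.

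**Figure D5:**
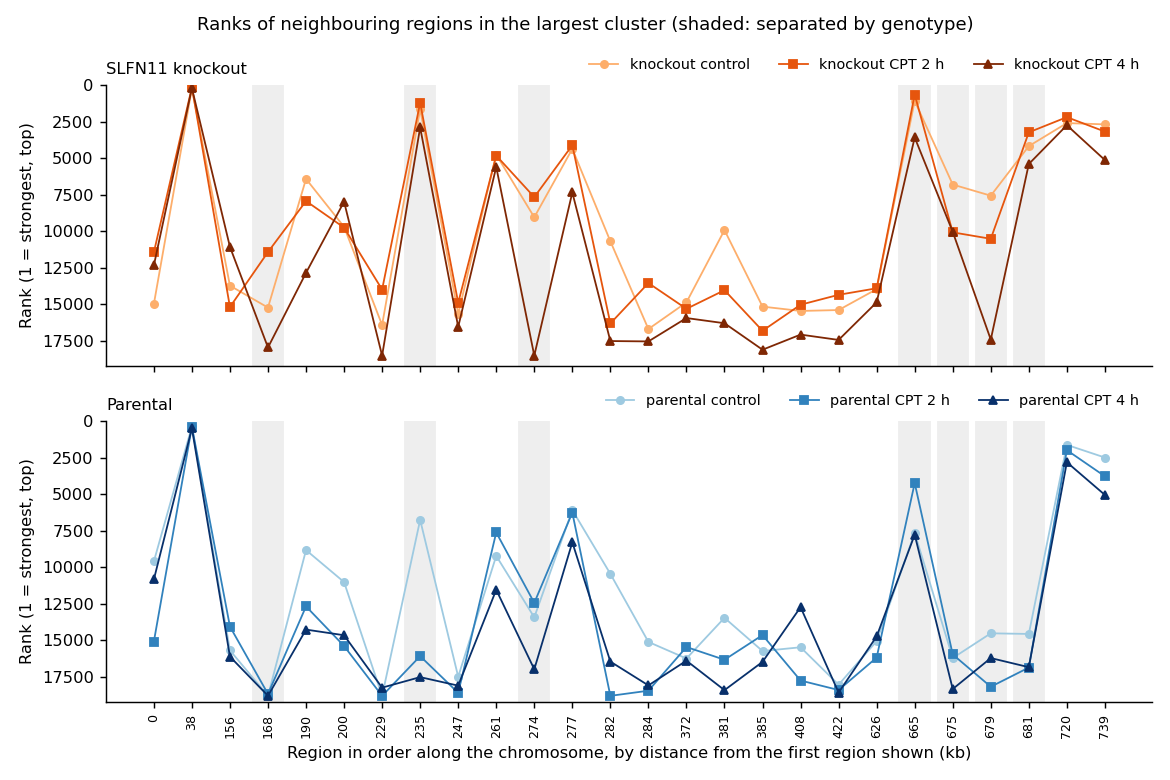
Ranks of 26 neighbouring regions around the largest group in knockout (top) and parental libraries (bottom), in order along the chromosome and labelled by distance from the first region shown in kb (x axis), with rank 1 the strongest at the top (y axis). Grey bands mark the 7 regions separated by genotype. The regions at 38, 720 and 739 kb rank high in all 6 libraries. Those at 235 and 681 kb rank high in the 3 knockout libraries and lower in every parental one, though at 235 kb the fold was highest in parental control.

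In the second group, the region from 111037566 to 111038279 ranked 3260, 3765 and 4309 in the knockout and 9341, 10402 and 16707 in parental cells. Its neighbour from 111041772 to 111042336 ranked 9254, 11453 and 15983 against 15884, 17863 and 17070, and the region from 111833093 to 111835134 ranked 12170, 11485 and 10806 against 18127, 17731 and 18331. Knockout 4 h stayed with its genotype in the regions from 111037566 and 111833093. In the group stronger in parental cells, the region from 58318233 to 58319543 ranked 9410, 9690 and 12739 in the knockout and 6150, 4658 and 4223 in parental cells. Its neighbour from 58320675 to 58321002 ranked 10132, 12952 and 18580 against 7056, 6521 and 6011, and the region from 57968140 to 57971419 ranked 16172, 16159 and 14481 against 12571, 11828 and 12409. All 3 kept the genotypes apart in all 6 libraries.

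Longer runs of one sign held few separated regions. The longest run of neighbouring regions on one side of 0 was 15 regions towards the knockout, from 17783396 to 18127987, with 3 separated regions, and overlaps the largest group. A run of 12 towards the knockout went from 185462546 to 185937308 with a median difference of 2000 places and 1 separated region. A run of 12 towards parental cells went from 194029955 to 194981874, 951.9 kb, with a median of -2441 places and 1 separated region, P4. No run of one sign on chromosome 3 held more than 15 regions, and none of the 6 runs with the most regions reached 1 Mb. Runs were ordered by number of regions, so the spans of runs in sparse places are not given. A single region of the other sign ends a run, so these counts cannot tell whether a long stretch differs.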

How the data were processed

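H3K27ac ChIP-seq peak lists of 6 libraries were used, 1 per group. Per the submitters' processing notes, MACS2 2.1.2 and BWA 0.7.17 were used on hg19, besides SAMtools 1.8, Picard 2.9.2, Trimmomatic 0.39 and Trim Galore 0.6.2. For the peak calls, settings and control sample were not given in the sources used here. The authors called broad peaks per library. The deposited fold is a ratio of pileup over background, the deposited −log10 p and −log10 q are per peak, and the deposited score, 10 times −log10 q, was not used.

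From these, 30000 peaks per library were matched by p, counted in 5 Mb bins by their midpoint, and merged into regions (the 15000 strongest of the 5 libraries) (overlap of at least 1 bp, Python 3.11.15, pandas 2.3.3, numpy 2.4.6). A region without a deposited peak shared the last rank. Background pileup was solved from the most frequent fold and p, which returned p to within 1.22e-05 on the −log10 scale. The regions, bins and rules were chosen with earlier results of these data known. Named were the 3 densest and sparsest bins, called bins, the 5 strongest regions, the 8 widest gaps per direction, 2 regions on each side of the threshold, groups of at least 3, and the longest run. Further runs, edge regions of the largest group and group members were named after their values were seen. Steps were tested on simulated lists. Sequencing depth in reads is unknown. Alternatives were other peak numbers, bin sizes, gaps, folds, merging, strength from fold, and leaving out libraries. Gene names and sequences at these hg19 positions were not analysed here.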

Additional observations from a re-analysis of the deposited data

How the results depend on the processing

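Counts moved with the thresholds. No paired analysis was possible because the groups, with 1 library each, share fewer than 2 replicate numbers and no test was run, and pairs of one treatment were only described. The share of chromosome 3, knockout minus parental at 2 h, was 0.0867 percentage points with 30000 peaks and 0.493 with all deposited peaks. Bins called between genotypes numbered 3, against 10 of 69 with 2 Mb bins, 1 of 20 with 10 Mb bins, 0 with knockout 4 h added and 0 at 1.5-fold, and 3 to 7 when 1 library was left out, with 7 without knockout control or without parental control and 6 without knockout 2 h. Regions stronger in the knockout and in parental cells numbered 45 and 16, against 113 and 52 with a gap over 1000 places, 14 and 7 with a gap over 5000, 272 and 131 of 3279 regions made from 30000 peaks, and 16 and 10 with knockout 4 h added. Leaving out 1 library gave 51 to 72 and 18 to 25, with 72 stronger in the knockout without knockout control and 25 stronger in parental cells without knockout 2 h. The share towards the knockout on chromosome 3 was above that of all regions in each of these settings and without each library, at 10.2% against 6.70% with a gap over 1000 and 8.30% against 6.10% with regions from 30000 peaks. The share towards parental cells was close to that of all regions in these 2 settings, at 4.68% against 4.59% and 3.995% against 4.02%, and above it in the others, such as 1.08% against 0.754% with strength from fold and 0.63% against 0.133% with a gap over 5000. The part of the rank difference between bins was 9.87%, against 17.8% with 2 Mb bins, 4.57% with 10 Mb bins, 7.54% with strength from fold, 7.42%, 9.23% and 8.31% in the pairs at control, 2 h and 4 h, and 8.64% to 10.5% when 1 library was left out. Bins past a log2 ratio of 0.32 in weak peaks, in either direction, numbered 7, against 3 with all deposited peaks, 3 with weak peaks down to rank 100000, 13 of 69 with 2 Mb bins and 2 of 20 with 10 Mb bins. At 1.5-fold there were 0, and 1 with 2 Mb bins. The causes were not tested. Leaving out the largest group, chosen after seeing the data, gave 38 and 16 regions.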
